A study of Homo sapiens with 9 samples.

Results

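Accessible chromatin was examined around 8 genes linked to neuroblastoma: LMO1, LIN28B, BARD1, HACE1, DUSP12, the long non-coding RNAs CASC15 and NBAT1, and the telomerase gene TERT. A region belonged to a gene when its centre lay inside the GRCh38 gene span or within 50 kb of either end. This rule uses position alone, and it gave 84 distinct regions of the 148797 in the table. CASC15 had 31 regions, HACE1 had 11, LMO1 had 10, DUSP12 and TERT had 9 each, BARD1 had 8, LIN28B had 6 and NBAT1 had 5. NBAT1 lies inside the CASC15 gene on the opposite strand, so all 5 of its regions also count for CASC15. The windows of HACE1 and LIN28B, neighbours on chromosome 6, overlap but share 0 regions. Windows also hold other genes, such as ATF6 beside DUSP12 and CLPTM1L beside TERT.

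The cells were SK-N-BE(2)c, a MYCN-amplified human neuroblastoma line, profiled by ATAC-seq, in which the Tn5 transposase places sequencing adapters in open DNA. Cells received 100 nM of an antisense oligonucleotide by lipid transfection and were collected 48 h later. ASO2 and ASO10 target NESPR, a long non-coding RNA, and NCA is the negative control oligonucleotide, which gives the background here. Each of the 3 groups had 3 libraries of this 1 cell line, with total counts of 7293565 to 10948569. The labels do not say whether the libraries of a group came from separate cultures, so p-values measure only the spread between these samples, which may be technical. Of 8 adrenergic neuroblastoma markers, 7 had a region within 1 kb of a gene end, and TH had none. In NCA they had 5.16 to 5063 CPM (a count rescaled for the size of its library). The highest was the amplified MYCN, and the next was PHOX2A at 36.9 CPM. Of 12 markers of mesenchymal, blood, epithelial, endothelial or liver cells, 6 had one, at up to 28.2 CPM for SNAI2. Among them, 4 of 5 mesenchymal or stromal markers had one, at 6.60 to 28.2 CPM. Their median of 19.0 CPM stood beside 23.7 for the adrenergic markers, so this check does not separate an adrenergic from a mesenchymal state.

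Neuroblastoma is a childhood tumour of the sympathetic nervous system, and genome-wide association studies tied common variants near BARD1, LMO1, LIN28B, HACE1, DUSP12 and the CASC15-NBAT1 locus to the risk of it. LMO1 is a transcriptional cofactor of the core regulatory circuit of these tumours, and LIN28B is an RNA-binding protein that blocks maturation of let-7 microRNAs, which repress MYCN among other targets. BARD1 forms a ubiquitin ligase with BRCA1 in DNA repair, HACE1 is a ubiquitin ligase that targets active RAC1, and DUSP12 is a dual-specificity phosphatase. CASC15 and NBAT1 are described as tumour-suppressive long non-coding RNAs that favour neuronal differentiation. TERT, the catalytic subunit of telomerase, is activated by rearrangement in some high-risk tumours.

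Promoter sequences of 4 of these genes are shown because their start regions carry the main contrasts described below. The NBAT1 start changed under ASO10, and the start regions of BARD1 and LMO1 had the most and the least signal per kb. LIN28B has a CpG-rich and a CpG-poor start site. Each runs 5′ to 3′ from 250 bases before to 50 after the start site and comes from RefSeq, build GRCh38.p14. Capitals mark matches, on either strand, to 4 motifs: GATAA (GATA factors), TAATTA (homeodomain factors), CACGTG (an E-box, as bound by MYC family proteins) and GGGCGG (a GC box). A match describes the letters only and does not show that a factor binds.
NBAT1, chr6:22147144-22147443, minus strand: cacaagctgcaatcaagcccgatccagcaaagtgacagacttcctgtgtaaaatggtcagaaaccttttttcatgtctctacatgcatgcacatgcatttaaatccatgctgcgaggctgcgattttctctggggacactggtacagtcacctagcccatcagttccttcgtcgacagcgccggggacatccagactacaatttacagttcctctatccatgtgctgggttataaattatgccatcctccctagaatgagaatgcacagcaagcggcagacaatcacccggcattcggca
BARD1, chr2:214809634-214809933, minus strand: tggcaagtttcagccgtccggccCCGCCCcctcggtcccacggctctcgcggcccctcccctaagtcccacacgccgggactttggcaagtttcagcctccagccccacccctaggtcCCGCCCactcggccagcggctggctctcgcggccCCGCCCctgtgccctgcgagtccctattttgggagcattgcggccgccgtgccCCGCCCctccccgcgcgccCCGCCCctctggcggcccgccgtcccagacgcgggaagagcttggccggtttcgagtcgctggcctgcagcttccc
LMO1, chr11:8268738-8269037, minus strand: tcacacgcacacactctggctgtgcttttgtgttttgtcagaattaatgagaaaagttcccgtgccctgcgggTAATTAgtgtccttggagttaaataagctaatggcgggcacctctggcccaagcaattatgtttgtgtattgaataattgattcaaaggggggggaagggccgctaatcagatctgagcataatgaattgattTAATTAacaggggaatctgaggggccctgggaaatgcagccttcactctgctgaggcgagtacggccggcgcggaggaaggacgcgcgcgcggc
LIN28B first start, chr6:104940715-104941014, plus strand: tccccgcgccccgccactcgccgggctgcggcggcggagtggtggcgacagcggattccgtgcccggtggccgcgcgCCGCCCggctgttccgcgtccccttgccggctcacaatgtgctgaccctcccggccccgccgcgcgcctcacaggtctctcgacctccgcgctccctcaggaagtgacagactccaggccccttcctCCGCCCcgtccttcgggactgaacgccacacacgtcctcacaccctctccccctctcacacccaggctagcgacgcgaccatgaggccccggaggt
LIN28B second start, chr6:104956857-104957156, plus strand: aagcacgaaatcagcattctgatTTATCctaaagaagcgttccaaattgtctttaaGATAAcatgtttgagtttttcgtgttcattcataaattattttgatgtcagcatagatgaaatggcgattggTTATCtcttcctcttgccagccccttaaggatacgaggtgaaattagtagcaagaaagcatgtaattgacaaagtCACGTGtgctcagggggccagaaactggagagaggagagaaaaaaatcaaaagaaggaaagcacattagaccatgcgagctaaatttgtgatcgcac
The NBAT1 promoter held 10 CpG dinucleotides and no match to these motifs, and 222 of its 300 bases lay in the region that changed under ASO10. BARD1 held 32 CpG and 5 GC boxes. LMO1 held 15 CpG and 2 TAATTA matches, 177 and 44 bases before the start. The first LIN28B start held 37 CpG and 2 GC boxes, whereas the second held 8 CpG, 3 GATAA matches and 1 CACGTG match 47 bases before the start. Over all 34943 promoters of this length in the table, the median was 14 CpG, and 22.8% held GATAA, 4.85% TAATTA, 7.23% CACGTG and 44.9% GGGCGG.

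Most of the chromatin at these genes did not pass the test under either oligonucleotide, and the calls that were made fell at CASC15, NBAT1 and BARD1. The NBAT1 start region was 1.59-fold higher under ASO10, and a region inside CASC15 was 2.11-fold higher under ASO2. A region inside BARD1 was 4.15-fold lower under ASO2. Another region inside CASC15 differed 2.44-fold between ASO2 and ASO10. In this bulk assay, a larger share of cells with an open site and a wider opening in each cell cannot be told apart.

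Of the 84 regions, 73 were tested and 11 weak ones fell below the count filter. Calls rest on the quasi-likelihood test of edgeR with Benjamini-Hochberg adjustment over all 119417 tested regions and an adjusted p under 0.05. Under ASO2, 2 of the 73 (2.74%) were called against NCA, where 5.6% of all regions were. Of these, 1 was higher and 1 lower, where 4.79% and 0.808% of all regions were called in those directions. Under ASO10, 1 (1.37%) was called, a higher one, beside 1.09% of all regions, 0.876% higher and 0.21% lower. ASO2 and ASO10 differed from each other in 2 regions (2.74%), both higher under ASO2, beside 3.23% of all regions, 2.54% higher and 0.682% lower. With so few calls, nothing is read from these shares. Before adjustment, 12 regions had p under 0.05 under ASO2, where 16.5% of all regions did. Under ASO10 there were 9, beside 10.6%, and between ASO2 and ASO10 there were 10, beside 14.6%. The ASO2 and NCA libraries did not overlap in 18 of the 73 regions, against a background of 20.5%, those of ASO10 and NCA in 10, against 15.7%, and those of ASO2 and ASO10 in 18, against 19.3%. The median log2 fold change of the members was 0.092 under ASO2 and 0.091 under ASO10, beside -0.024 and -0.0067 over all tested regions, and these medians share the NCA libraries. Between ASO2 and ASO10 it was -0.050, beside -0.0021.

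Start regions differed widely in signal per kb in the control libraries. No input or copy-number control was used, so differences between loci cannot be read as openness alone. In NCA, the region over the BARD1 start had 41.1 CPM per kb of region, percentile 97.6 of the 11452 regions over a start site, whose median was 13.7. The region at an end of the DUSP12 gene, whose strand was not used here, had 33.7 CPM per kb (percentile 94.4), and the first LIN28B start and the HACE1 start had 18.8 and 18.3. The NBAT1 start had 7.58 CPM per kb, a region just upstream of it 7.13, and the second LIN28B start 6.73, all below the median. LMO1 had the lowest value, 4.23 CPM per kb, at percentile 1.91. The nearest region analysed to the CASC15 start site lay 1534 bp away, and the nearest to the TERT start site 3644 bp away.

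**Figure D1:**
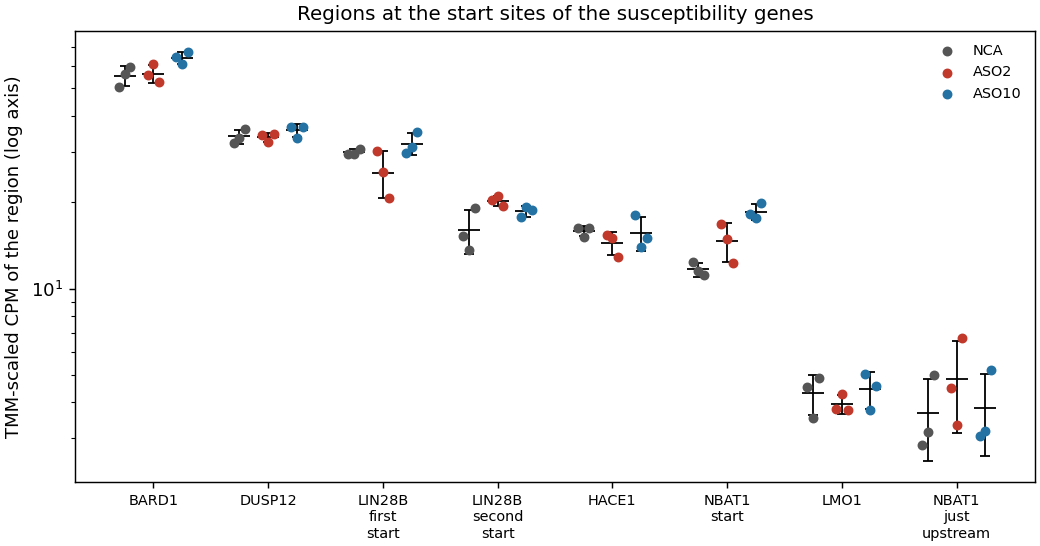
TMM-scaled CPM (log axis) of each start-site region in every library, coloured by group, with the group mean and SD (n = 3) as horizontal and vertical bars. All 3 ASO10 libraries lie above all 3 NCA libraries at the NBAT1 start, and the LMO1 start and the region just upstream of NBAT1 are the weakest.

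NBAT1 (gene span chr6:22134602-22147193) had the only start region that was called, and the CASC15 and TERT start sites had no region over them to test. Its start region (chr6:22145828-22147365), which covers the first part of the gene inside CASC15, had 12.4, 11.5 and 11.1 CPM in NCA, 16.8, 14.9 and 12.3 CPM with ASO2, and 18.2, 17.6 and 19.9 CPM under ASO10. All ASO10 libraries lay above all NCA and all ASO2 libraries, while 1 ASO2 library fell within the NCA range. The means were 11.7 ± 0.643, 14.7 ± 2.28 and 18.6 ± 1.20 CPM (SD, n = 3 each). The region rose under ASO10 by 0.67 ± 0.17 on the log2 scale (SE), with an edgeR adjusted p of 0.0123. The ASO2 difference was 0.32 ± 0.17 (edgeR adjusted p = 0.323), and that of ASO2 from ASO10 was -0.35 ± 0.16 (edgeR adjusted p = 0.269), so a difference between the oligonucleotides was not shown. The region held 91 to 155 counts per library. The ASO10 call was lost when NCA replicate 2 (edgeR adjusted p = 0.0587), NCA replicate 3 (0.0751), ASO10 replicate 1 (0.0566) or ASO10 replicate 3 (0.116) was left out.

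The other 4 regions at NBAT1 passed no test. The region just upstream of the start, 897 bp from it, had mean CPM values of 3.66 ± 1.17 with NCA, 4.84 ± 1.71 with ASO2 and 3.81 ± 1.21 with ASO10 (SD, n = 3 each), with the 3 groups overlapping. A weak region near the far end of the gene (chr6:22135461-22135774) had 0.773, 0.126 and 1.02 CPM in NCA, 2.39, 2.15 and 1.10 with ASO2, and 1.06, 1.59 and 1.30 with ASO10. Its NCA libraries lay below all others, from 1 to 20 counts per library, and neither difference passed (edgeR adjusted p = 0.228 and 0.657). Summed over its 5 regions, the NBAT1 locus had 24.0, 22.3 and 21.9 CPM in NCA, 31.4, 28.0 and 24.1 with ASO2, and 27.1, 27.1 and 35.4 with ASO10. Every ASO library lay above the NCA libraries. The ASO10 rise was 0.39 ± 0.13 (1.31-fold, edgeR adjusted p = 0.0449), and the ASO2 difference was 0.29 ± 0.13 (edgeR adjusted p = 0.174). The start region supplied 55.8% of this sum. The ASO10 call on the sum was lost without NCA replicate 1 (edgeR adjusted p = 0.0720), 2 (0.112) or 3 (0.131), or ASO10 replicate 1 (0.0551) or 3 (0.402, with a log2 difference of 0.25). It was also lost with total-count scaling (edgeR adjusted p = 0.0776), a 10 kb window (0.0604), DESeq2 (0.0716) and limma-voom (0.0717).

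CASC15 (gene span chr6:21666413-22195820), a long gene whose accessibility is spread over many weak sites, had a higher sum under ASO2. Its single regions went both ways. Its 31 regions summed to 100.1, 89.6 and 92.9 CPM in NCA, 111.7, 120.5 and 107.9 with ASO2, and 107.9, 107.2 and 113.0 with ASO10. All 6 ASO libraries lay above all 3 NCA libraries. The sum rose by 0.27 ± 0.07 under ASO2 (1.20-fold, edgeR adjusted p = 0.00809), and the ASO10 difference was 0.21 ± 0.07 (edgeR adjusted p = 0.0519). The latter passed in only 4 of 20 alternatives. These were DESeq2 (adjusted p = 0.0483), a fit of only the groups compared (edgeR adjusted p = 0.0229), and leaving out ASO2 replicate 2 (0.0299) or 3 (0.0296). With other single libraries left out, the edgeR adjusted p went up to 0.225. Over all 20, the log2 difference went down to 0.13. ASO2 and ASO10 did not differ detectably (0.052 ± 0.074, edgeR adjusted p = 0.701). The ASO2 call was lost without NCA replicate 2 (edgeR adjusted p = 0.0658) or ASO2 replicate 2 (0.0591). Of the 27 tested regions, 20 had a log2 difference above 0 under ASO2 and 18 under ASO10. The 26 regions outside the NBAT1 window summed to 71.5 ± 4.42 CPM with NCA, 85.5 ± 6.30 with ASO2 and 79.5 ± 1.68 with ASO10 (SD, n = 3 each), ratios to NCA of 1.196 and 1.112, so the sum was higher without NBAT1 as well. CASC15 and NBAT1 were the only loci of the 8 to pass this test, CASC15 under ASO2 and NBAT1 under ASO10. Over all 54738 genes summed in this way, 9.35% were called under ASO2, 8.29% under ASO10 and 13.7% between the 2 oligonucleotides, where 0 of the 8 loci passed (edgeR, with 2 at an unadjusted p under 0.05, and 0 passed with DESeq2 or limma-voom).

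**Figure D2:**
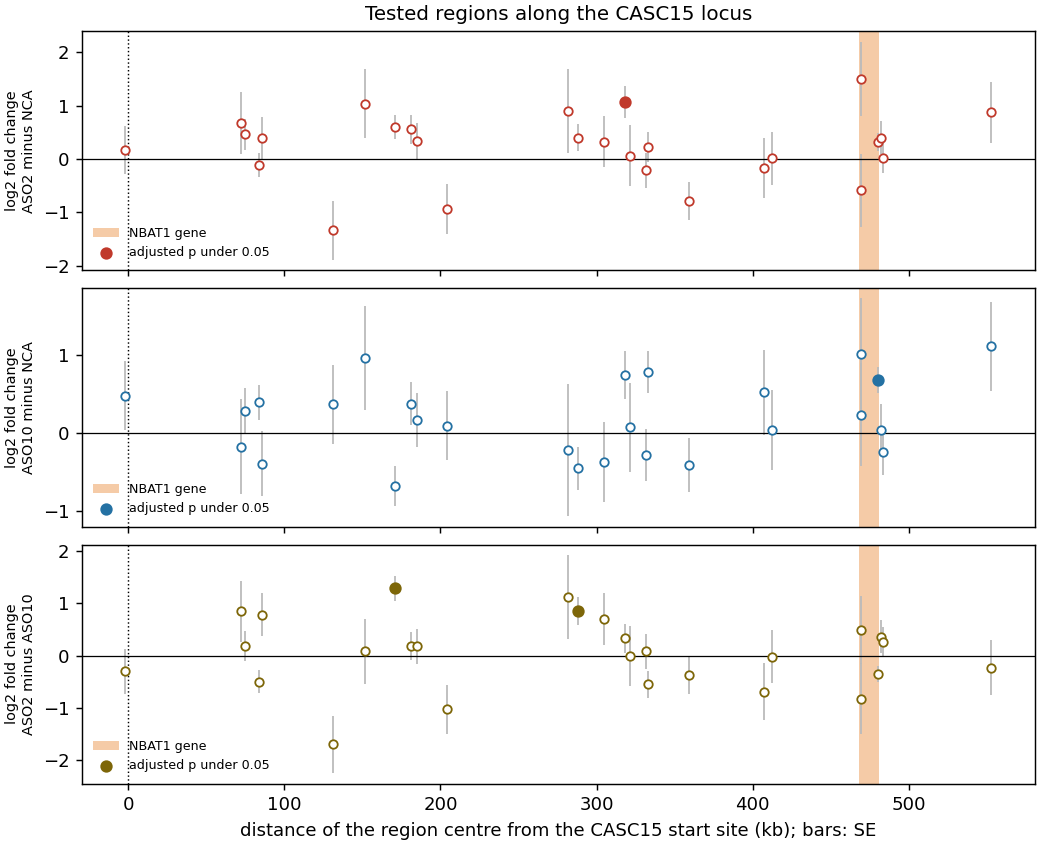
Log2 fold change (vertical axis, bars SE) of the 27 tested CASC15 regions against the distance of the region centre from the CASC15 start site in kb, for ASO2 minus NCA, ASO10 minus NCA and ASO2 minus ASO10. Filled points passed an adjusted p of 0.05; the shaded band is the NBAT1 gene, whose start region is the filled point of the middle panel.

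Within CASC15, 3 regions besides the NBAT1 start were called in a comparison, and all 3 lay far inside the gene. The region 317.3 kb from the start site (chr6:21983732-21984832) had 2.71, 4.16 and 2.38 CPM in NCA, 6.60, 6.55 and 6.33 with ASO2, and 5.16, 3.98 and 6.38 with ASO10. The ASO2 libraries lay close together and above every NCA library, and 1 ASO10 library lay within the NCA range. The region rose by 1.07 ± 0.30 under ASO2 (edgeR adjusted p = 0.00932), and the ASO10 difference was 0.74 ± 0.30 (edgeR adjusted p = 0.292). The ASO2 call was lost without NCA replicate 1 (edgeR adjusted p = 0.0614) or NCA replicate 3 (0.0877). Counts ranged from 21 to 69 per library.

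The region 170.6 kb from the start site (chr6:21836969-21837493) separated the 2 oligonucleotides. It had 6.31, 6.05 and 7.49 CPM in NCA, 8.28, 10.2 and 11.6 with ASO2, and 4.69, 5.35 and 2.21 with ASO10. All ASO2 libraries lay above the NCA libraries and all ASO10 libraries below them. ASO2 was higher than ASO10 by 1.29 ± 0.24 on the log2 scale (edgeR adjusted p = 5.06e-05), and this call was kept under all 18 alternatives, with a highest adjusted p of 0.0157. Against NCA, the differences of 0.60 ± 0.23 under ASO2 and -0.68 ± 0.26 under ASO10 did not pass (edgeR adjusted p = 0.112 and 0.215). The third region, 287.5 kb from the start site (chr6:21953899-21954872), had 7.47, 3.66 and 6.35 CPM in NCA, 10.8, 6.98 and 5.69 with ASO2, and 3.52, 4.32 and 4.95 with ASO10. Only the groups ASO2 and ASO10 were apart, by 0.85 ± 0.26 (edgeR adjusted p = 0.0400), and NCA overlapped both. This call held in 8 of 18 alternatives and was lost, among others, without ASO2 replicate 1 (edgeR adjusted p = 0.410), ASO2 replicate 2 (0.0609), or ASO10 replicate 1 (0.207), 2 (0.114) or 3 (0.0587), and with DESeq2 (adjusted p = 0.117).

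**Figure D3:**
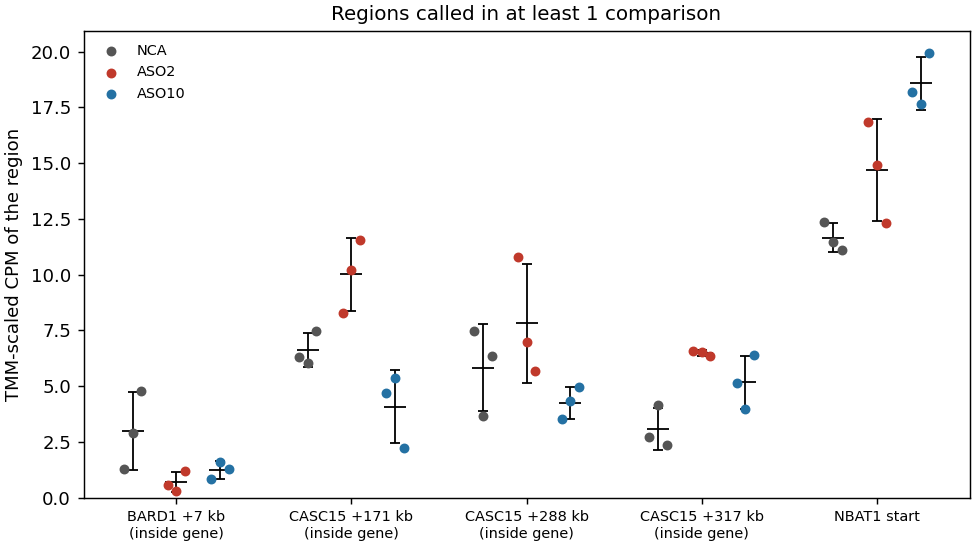
TMM-scaled CPM in every library (linear axis from 0) of the 5 regions called in at least 1 comparison, with group mean and SD (n = 3) as bars. ASO10 libraries are highest at the NBAT1 start, and at the CASC15 region 170.6 kb from the start site ASO2 lies above and ASO10 below the NCA libraries.

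LMO1, the transcriptional cofactor (gene span chr11:8224309-8268787), showed no called region among its 7 tested ones. Its strongest region lay outside the gene, 13.98 kb upstream of the start (chr11:8282769-8284543), at 16.7, 14.1 and 13.6 CPM in NCA, 15.0, 16.6 and 13.1 with ASO2, and 17.8, 14.6 and 17.8 with ASO10, with the groups overlapping. The start region had means of 4.31 ± 0.697, 3.95 ± 0.299 and 4.45 ± 0.651 CPM in NCA, ASO2 and ASO10 (SD, n = 3 each). The smallest p under ASO10 belonged to a region past the far end of the gene (chr11:8206089-8207240), with 17.4, 12.2 and 10.1 CPM in NCA and 9.50, 8.87 and 9.64 under ASO10. Here NCA replicate 1 was the highest library and the groups did not overlap, and the difference of -0.50 ± 0.19 did not pass (edgeR adjusted p = 0.229). Summed over the locus, LMO1 differed from NCA by -0.090 ± 0.089 under ASO2 and -0.10 ± 0.09 under ASO10 (edgeR adjusted p = 0.599 and 0.555).

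LIN28B, the let-7 antagonist (gene span chr6:104937026-105083332), held 48.96% of its summed signal in the region over its first start (chr6:104940198-104941795). That region had 29.5, 29.6 and 30.7 CPM in NCA, 30.2, 25.4 and 20.6 with ASO2, and 29.7, 31.3 and 35.3 with ASO10. Group ranges overlapped in all 3 comparisons, and the difference of ASO2 from ASO10, -0.35 ± 0.13, did not pass (edgeR adjusted p = 0.136). The region over the second start (chr6:104955964-104958337), whose promoter is poor in CpG, had 15.2, 13.6 and 19.1 CPM in NCA, 20.3, 21.0 and 19.5 with ASO2, and 17.7, 19.3 and 18.8 with ASO10. ASO2 lay above NCA without overlap at a difference of 0.34 ± 0.15 (edgeR adjusted p = 0.216). A region 94.05 kb from the second start site (chr6:105051160-105052503) came closest to the threshold. It had 8.12, 5.55 and 6.81 CPM in NCA, 9.40, 9.66 and 12.2 with ASO2, and 6.22, 6.14 and 9.12 with ASO10. ASO2 was above NCA in every library, by 0.62 ± 0.22 (edgeR adjusted p = 0.0715), and ASO10 overlapped NCA. Summed, the locus differed by 0.12 ± 0.09 under ASO2 and 0.13 ± 0.09 under ASO10 (edgeR adjusted p = 0.441 and 0.408).

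BARD1, the BRCA1 partner (gene span chr2:214725646-214809683), had its signal almost entirely at the start: the start region (chr2:214809084-214810432), which also covers the non-coding gene SNHG31, held 84.6% of the locus sum. It had 50.6, 56.0 and 59.6 CPM in NCA, 55.7, 60.7 and 52.5 with ASO2, and 64.6, 60.9 and 66.9 with ASO10. The ASO10 libraries lay above all others. The difference of 0.21 ± 0.11 did not pass (edgeR adjusted p = 0.496), nor did that of the locus sum, 0.18 ± 0.09 (edgeR adjusted p = 0.189). The centre of the start region lies just outside the gene, and over the gene span alone, which leaves it out, the ASO10 difference was -0.67. A weak region inside the gene, 6.567 kb from the start (chr2:214802370-214803116), fell under ASO2. It had 1.29, 2.90 and 4.77 CPM in NCA, 0.561, 0.322 and 1.19 with ASO2, and 0.821, 1.59 and 1.30 with ASO10, from 3 to 42 counts per library. All ASO2 libraries lay below the NCA libraries, whose own values spread widely. The log2 change was -2.05 ± 0.59 (95% interval -3.20 to -0.905, edgeR adjusted p = 0.0131), and under ASO10 the difference was -1.27 ± 0.56 (edgeR adjusted p = 0.357). The ASO2 call was lost without NCA replicate 3 (edgeR adjusted p = 0.276), ASO2 replicate 1 (0.0563) or ASO2 replicate 2 (0.118) and with limma-voom (adjusted p = 0.109).

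HACE1, the RAC1-directed ligase (gene span chr6:104728094-104859919), had no called region among 11. Its start region (chr6:104859335-104860203) had 16.2, 15.1 and 16.2 CPM in NCA, 15.4, 15.0 and 12.9 with ASO2, and 18.1, 13.995 and 15.0 with ASO10. The groups overlapped in every comparison. A weak region inside the gene, 63.7 kb from the start (chr6:104795501-104795844), had 0.258, 1.01 and 1.48 CPM in NCA, 3.93, 2.36 and 2.57 with ASO2, and 0.821, 1.48 and 0.912 with ASO10. ASO2 was the highest group without overlap. Its difference from NCA of 1.65 ± 0.57 did not pass (edgeR adjusted p = 0.0648), though it did with loess offsets (edgeR adjusted p = 0.0487) and without NCA replicate 3 (0.0435). The region held 2 to 28 counts per library. The HACE1 sum differed from NCA by 0.015 ± 0.110 under ASO2 and -0.030 ± 0.111 under ASO10.

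DUSP12, the phosphatase (gene span chr1:161749786-161757238), lies in a gene-dense window with the highest summed signal per kb of the 8, and none of its 9 regions was called. The region over the low-coordinate end of the gene (chr1:161749578-161750587) had 32.2, 33.7 and 36.1 CPM in NCA. It had 34.4, 32.4 and 34.7 with ASO2, and 36.7, 33.7 and 36.7 with ASO10. These values overlapped across all groups, with differences of -0.0079 ± 0.1252 and 0.070 ± 0.125. A region over the start of the neighbouring gene ATF6, a sensor of unfolded proteins (chr1:161765012-161766924), had 13.5, 17.0 and 17.8 CPM in NCA and 20.1, 21.0 and 20.1 under ASO10. The ASO10 libraries lay above NCA, and the difference of 0.34 ± 0.15 did not pass (edgeR adjusted p = 0.390). A region over FCRLB (chr1:161725874-161727656) had 24.5, 25.0 and 28.6 CPM in NCA and 21.6, 22.4 and 21.7 under ASO2, a difference of -0.25 ± 0.14 (edgeR adjusted p = 0.369).

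TERT, the telomerase subunit (gene span chr5:1253167-1295068), had 4 of its 9 regions inside the gene and no call. The region nearest to its start site (chr5:1289521-1291424) had a mean of 13.2 CPM in NCA and differed by -0.22 under ASO2 and -0.012 under ASO10. The strongest region of the window lay in CLPTM1L (chr5:1332470-1333863), at 13.96 ± 1.72, 11.7 ± 1.73 and 14.05 ± 1.61 CPM in NCA, ASO2 and ASO10 (SD, n = 3 each). A region 21.62 kb into the gene (chr5:1272629-1273448) had 3.61, 5.80 and 4.43 CPM in NCA, 2.25, 2.68 and 2.57 with ASO2, and 3.87, 3.19 and 4.82 with ASO10. ASO2 was below both other groups without overlap, and the difference from NCA of -0.87 ± 0.35 did not pass (edgeR adjusted p = 0.135). Summed over the locus, TERT had 38.5, 45.1 and 42.1 CPM in NCA, 35.4, 32.7 and 38.5 with ASO2, and 41.4, 38.2 and 45.1 with ASO10. ASO2 overlapped NCA narrowly. Its differences from NCA and from ASO10, -0.24 ± 0.11 and -0.22 ± 0.11, did not pass (edgeR adjusted p = 0.167 and 0.164).

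**Figure D4:**
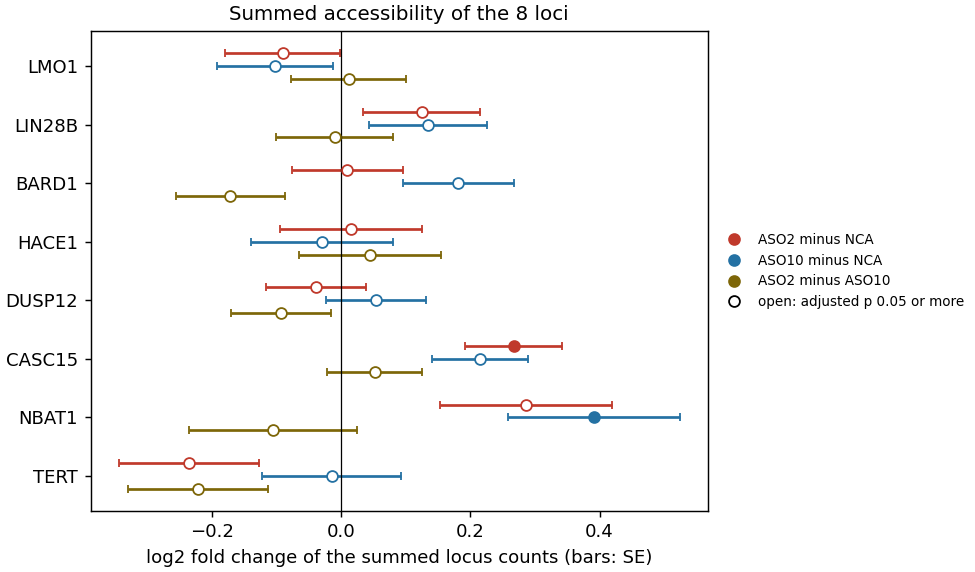
Log2 fold change of the summed counts of each of the 8 loci (horizontal axis, bars SE) for ASO2 minus NCA, ASO10 minus NCA and ASO2 minus ASO10. Filled points passed an adjusted p of 0.05: CASC15 under ASO2 (0.27) and NBAT1 under ASO10 (0.39).

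The order of the loci by summed signal per kb of window in NCA was DUSP12 (0.852 CPM per kb), LMO1 (0.442), BARD1 (0.359), TERT (0.295), LIN28B (0.227), NBAT1 (0.202), HACE1 (0.167) and CASC15 (0.150). The NCA ranges of BARD1 and TERT overlapped slightly, and those of LIN28B and NBAT1 overlapped too. The other neighbours in this order were apart in every NCA library. The strongest region held from 14.2% of the locus sum at CASC15 to 84.6% at BARD1, so the CASC15 sum drew on many sites and the BARD1 sum on 1. For each locus the gene on another chromosome with the most similar profile of summed log2 CPM over the 9 libraries was sought. Candidates were limited to genes of similar mean summed CPM, from 18659 for CASC15 to 25384 for LIN28B. A nearest gene is always found among so many, so no relation is read from these names. CASC15 was closest to PCDH17 and OLMALINC (root mean square differences of 0.0366 and 0.0377 on the log2 scale, against a spread of 0.129 in CASC15 itself). LIN28B was closest to ETV4 (0.0266), BARD1 to MARK2P13 (0.0283), LMO1 to ZNF33A (0.0353) and HACE1 to PCAT6 (0.0384). DUSP12 was closest to RPL36AP38 (0.0351), TERT to ABCD1P2 (0.05) and NBAT1 to LOC124904930 (0.0749).

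Related genes (partners, pathway members, neighbours and other association loci) were followed through a list of 52, of which 51 could be tested as loci summed over the same kind of window, which can hold other genes too. Under ASO2, 3 were higher and 3 lower than NCA, against a background of 6.02% higher and 3.34% lower. Under ASO10, 5 were higher and 1 lower, against 6.95% and 1.35%. Between the oligonucleotides, 1 was higher and 6 lower under ASO2, against 4.54% and 9.21%. These counts move with the window: the calls in either direction became 2, 2 and 4 with a 10 kb window and 3, 1 and 2 with the gene span only. With single libraries left out, they ranged from 3 to 6, 2 to 7 and 5 to 9. List medians were -0.033, 0.073 and -0.081, beside -0.032, 0.031 and -0.065 over all genes tested.

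Among the LMO and LDB factors, LMO4, a paralogue of LMO1, rose under both oligonucleotides. Its sum went from 67.0 ± 4.41 CPM in NCA to 83.8 ± 1.34 with ASO2 and 85.8 ± 7.55 with ASO10 (SD, n = 3 each). The edgeR adjusted p-values were 0.00305 and 0.00127, from comparisons that share the NCA libraries. LMO2 fell under ASO10 by 0.63 ± 0.20 on the log2 scale (edgeR adjusted p = 0.0258) and was at -0.52 ± 0.19 under ASO2 (edgeR adjusted p = 0.0699). LDB1, the scaffold that LMO proteins bind, was lower under ASO2 than under ASO10 (-0.20 ± 0.07, edgeR adjusted p = 0.0331). The LMO4 call was held in 18 of 20 alternative settings under ASO2 and 19 of 20 under ASO10. It was lost under ASO2 without NCA replicate 3 (edgeR adjusted p = 0.0506) and with a 10 kb window, and under ASO10 with the gene span only. LMO2 kept its call in 14 of 18 settings, and lost it without NCA replicate 1 or 3 or ASO10 replicate 2 or 3 (edgeR adjusted p up to 0.191). LDB1 kept its call in 12 of 20, and lost it without ASO2 replicate 1 or any single ASO10 library (edgeR adjusted p up to 0.145). It also lost it in both narrower windows and with loess offsets (edgeR adjusted p = 0.339).

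Among the partners of BARD1, BABAM1 of the BRCA1-A complex was higher under ASO10 (0.26 ± 0.06, edgeR adjusted p = 0.00334). It was also lower under ASO2 than under ASO10 (-0.23 ± 0.06, edgeR adjusted p = 0.00836). Of 14 telomerase and telomere genes, 4 were lower under ASO2 than under ASO10, where 9.21% of all summed loci were lower and 4.54% higher. They were TERF2 (-0.35 ± 0.08), TERF2IP (-0.30 ± 0.10) and TINF2 (-0.29 ± 0.07), all shelterin genes, and the helicase gene RTEL1 (-0.24 ± 0.06). Their edgeR adjusted p ran from 0.00100 to 0.0284. The other listed shelterin genes were not called: ACD was at -0.12 ± 0.09 (edgeR adjusted p = 0.402). POT1 went the other way, at 0.095 ± 0.079 (edgeR adjusted p = 0.465). The median of the 14 was -0.099, beside -0.065 over all summed loci. TINF2 was also lower under ASO2 than in NCA (-0.21 ± 0.07, edgeR adjusted p = 0.0259). Between ASO2 and ASO10, TERT, at -0.22, did not pass. Of these calls, TERF2 and TINF2 between ASO2 and ASO10 were held in every alternative that gave a value, 20 and 19 of them. TERF2IP was held in 14 of 20, and lost without ASO2 replicate 1 or ASO10 replicate 1 or 3 (edgeR adjusted p up to 0.196). RTEL1 was held in 16 of 20, and lost without ASO2 replicate 3 (edgeR adjusted p = 0.0617). BABAM1 was held in 15 of 20 between the oligonucleotides, where it was lost without ASO2 replicate 1 or 3 (edgeR adjusted p up to 0.0615), and in 17 of 20 under ASO10, where the gene span alone gave -0.70 (edgeR adjusted p = 0.643). TERF2IP, RTEL1 and BABAM1 were called in neither narrower window. Between ASO2 and ASO10 they also lost the call with loess offsets (edgeR adjusted p = 0.0744, 0.107 and 0.157). BABAM1 under ASO10 lost it there too (edgeR adjusted p = 0.0641). Loess offsets moved the median of all summed loci between ASO2 and ASO10 from -0.065 to -0.012. TINF2 under ASO2 was held in 16 of 19, and lost without NCA replicate 1 or ASO2 replicate 1 (edgeR adjusted p up to 0.158).

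Of 8 other genes from association studies, SPAG16 had the smallest p, rising from 108 ± 5.16 CPM in NCA to 143 ± 8.19 under ASO2 (0.41 ± 0.07, edgeR adjusted p = 2.36e-06), with 111 ± 1.17 under ASO10. ASO2 also exceeded ASO10 at SPAG16 (0.36 ± 0.07, edgeR adjusted p = 8.14e-05). HSD17B12, a lipid enzyme gene, rose under ASO2 (0.28 ± 0.08, edgeR adjusted p = 0.00955), CPZ fell (-0.27 ± 0.09, edgeR adjusted p = 0.0422), and MLF1 rose under ASO10 (0.24 ± 0.08, edgeR adjusted p = 0.0469). SOX4, the transcription factor gene next to CASC15, rose under ASO10 (0.30 ± 0.09, edgeR adjusted p = 0.0227), and its window shares 1 region with that of CASC15. In the LIN28 and let-7 group of 10 tested genes, only RAN, a nuclear transport GTPase, was called (-0.23 ± 0.08 under ASO2, edgeR adjusted p = 0.0390). Both SPAG16 calls were held in all 20 alternatives. HSD17B12 was held in 18 of 20, and lost without NCA replicate 2 or ASO2 replicate 2 (edgeR adjusted p up to 0.165). The other calls near the threshold were less stable. CPZ was held in 13 of 20, and lost without replicate 1 or 2 of NCA or of ASO2 (edgeR adjusted p up to 0.158). MLF1 was held in 7 of 20, and lost without any single NCA or ASO10 library or ASO2 replicate 1 (edgeR adjusted p up to 0.231). SOX4 was held in 16 of 20, and lost without NCA replicate 2 or 3 or ASO10 replicate 1 or 3 (edgeR adjusted p up to 0.190). RAN was held in 13 of 19, and lost without NCA replicate 2 or 3 or ASO2 replicate 3 (edgeR adjusted p up to 0.242).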

How the data were processed

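The authors deposited whole-number counts for 1 set of 148797 regions in 9 libraries, with no normalization. Per the submitters' processing notes, the build was GRCh38 and Bowtie2 2.2.6, SAMtools, MACS2 2.1.2 and DESeq2 1.42.0 were used. How peaks were merged, what was counted and any shift for Tn5 are not given in the sources used here. Regions that passed filterByExpr by group (119417) were scaled by TMM and tested with edgeR 4.0.16 (quasi-likelihood, robust, all 9 libraries, R 4.3.3), with a biological coefficient of variation of 23.5%. Counts in each gene window were summed and tested likewise over 54738 genes (7.47%). SE is the log2 fold change divided by the square root of F. CPM are TMM-scaled. No 2 libraries of a group were copies (chi-square per degree of freedom 2.67 to 3.34). Alternatives were DESeq2 1.42.0, limma-voom (limma 3.58.1), other scalings, filters and windows, a replicate block, and leaving out each library. Named regions are those at a start site, with the highest CPM, called, or with the smallest p per comparison, with exon positions not used here. The members and lists were chosen with earlier results of these data known. A result of the related-gene list is not reported here.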

Additional observations from a re-analysis of the deposited data

How the results depend on the processing

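Across 1472 pairs of a result and an alternative setting, 1252 kept their direction and their side of the threshold (or stayed close, for counts), 110 lost and 6 gained a call, 41 changed sign and 63 counts moved by over 1.5 times. No scaling moved the median of all regions by over 0.1 on the log2 scale. The causes of these shifts were not tested. Weak regions limit what can be seen: the 11 untested ones held at most 21 counts in any library, and some tested ones, such as the called region inside BARD1, had no value with DESeq2 or with at least 10 counts in every library.

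The number of the 73 regions called under ASO2 fell to 1 with DESeq2, with at least 10 counts in every library and with limma-voom, and that under ASO10 to 0 with a log2 fold change over 1. Between ASO2 and ASO10 it fell to 1 with DESeq2, loess offsets, no filter on low counts, limma-voom, a log2 fold change over 1 and the replicate block. The number of the 8 loci called under ASO10 became 0 with total counts, limma-voom, the replicate block and a 10 kb window, and 2 with only the groups compared. Related genes called under ASO2 became 2 with a 10 kb window and 3 with the gene span only. Under ASO10 they became 3 with loess offsets, 2 with a 10 kb window and 1 with the gene span only. Between the oligonucleotides they became 12 with only the groups compared, 4 with a 10 kb window and 2 with the gene span only.

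When single libraries were left out, member regions called ranged from 1 to 2 under ASO2, 0 to 1 under ASO10 and 1 to 2 between them. Loci called ranged from 0 to 1, 0 to 2 and 0 to 0. Related genes called ranged from 3 to 6, 2 to 7 and 5 to 9.

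Sign changes occurred only at summed loci. Of those that had passed the test, only BABAM1 changed sign, to -0.70 under ASO10 with the gene span only. Under ASO2, BARD1 went to -0.0067 with total counts, -0.011 with a 10 kb window and -0.35 with the gene span only, HACE1 to -0.0026 with total counts and -0.013 with limma-voom, and DUSP12 to 0.048 with a 10 kb window. Under ASO10, DUSP12 went to -0.026 with loess offsets, HACE1 to 0.11 with either narrower window, and BARD1 to -0.67 with the gene span only. Between ASO2 and ASO10, LIN28B went to 0.0038 with total counts and 0.049 with loess offsets, and DUSP12 to 0.00037 with loess offsets. LMO1 went to -0.012 with only the groups compared, -0.0072 with a 10 kb window and -0.000312 with the gene span only. HACE1 went to -0.036 with either narrower window and BARD1 to 0.33 with the gene span only. With libraries left out, BARD1 ranged from -0.080 to 0.075, HACE1 from -0.054 to 0.14 and DUSP12 from -0.096 to 0.012 under ASO2. Under ASO10, HACE1 ranged from -0.096 to 0.014 and TERT from -0.080 to 0.041. Between ASO2 and ASO10, LMO1 ranged from -0.048 to 0.088, LIN28B from -0.045 to 0.044, HACE1 from -0.024 to 0.17 and NBAT1 from -0.20 to 0.027.

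No pairing of libraries by replicate number was detected: of 9 pairs of same-numbered libraries, 0 had deviations correlated over 0.1, and 0 libraries matched best with their own number. Counting noise in weak regions can hide such a correlation, so this check cannot exclude pairing. With the replicate block, the NBAT1 sum under ASO10 was 0.39 (edgeR adjusted p = 0.0596).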
